A study of Mus musculus with 31 samples.

Results

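Smooth muscle and cytoskeletal actin genes were followed in CD4+ T cells and whole spleen of mice that carry, or do not carry, a fusion of the genes Vav1 and Myo1f, which is found in peripheral T cell lymphoma. The group holds 10 genes out of the 48211 gene symbols listed in every count table. They are Actg2, Smtn, Acta2, Tagln, Tagln2, Cnn2, Actn1, Actb, Actg1 and Tpm1. They were chosen by symbol because Actg2 and Smtn differed most between control and pre-lymphoma CD4+ cells, so that contrast is described here without a test and supports nothing.

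Gene counts came from 31 bulk polyA RNA libraries of C57B/6 mice, made with SMART-Seq v4 and Nextera XT chemistry. They fall into 11 groups in 3 sets, and all values below are compared within a set. The pre-lymphoma set holds CD4+ cells of 2 control libraries (genotype label CD4-Cre-ERT2(WT)), 3 libraries labelled with this control genotype, a slash and Vav1Myo1ffl/wt;CD4CreERT2 (Vav1Myo1f), called control/fusion, and 3 libraries with the fusion genotype on both sides of the slash, called fusion/fusion. What the slash joins is not given in the sources used here. The CD4-Cre set has controls labelled CD4-Cre(WT), with 3 CD4+ and 3 spleen libraries, and tumor mice labelled CD4-CreVav1Myo1f fl/wt, with 4 CD4+ and 3 spleen libraries. The CD4-CreERT2 set has controls labelled CD4-CreERT2 (WT), with 2 CD4+ and 3 spleen libraries, and tumor mice labelled CD4-CreERT2Vav1Myo1f fl/wt, with 2 CD4+ and 3 spleen libraries. Every group, controls included, carries a Cre or CreERT2 label under the name CD4, a gene also active outside mature CD4+ cells during T cell development. Age, tamoxifen treatment and the way cells were sorted are not given in the sources used here. A mouse number shared by a CD4+ and a spleen library of 1 status marks the same animal, whereas the number VM645 stands on 1 tumor and 2 control libraries, each used here under its own label.

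Gene counts summed to about 12632000 to 29258000 per library in the pre-lymphoma set, 24480000 to 37569000 in the CD4-Cre set and 24772000 to 36880000 in the CD4-CreERT2 set. Levels are given as CPM, the counts of a gene over all gene counts of its library, scaled to the same total in each. The CD4+ label held for Cd4 itself, a co-receptor of helper T cells, which lay between 355.7 and 1057 CPM in CD4+ libraries and between 6.11 and 255.1 CPM in spleen. Vav1 lay between 67.0 and 419.8 CPM over the 31 libraries, and counts per gene cannot tell its fused from its normal transcript. Myo1f in the pre-lymphoma set was at 69.4 to 81.5 CPM in controls and at 145.8 to 179.5 CPM in the 6 fusion libraries, without overlap. Some libraries stood apart from the others of their group. The tumor CD4+ library of VM98 had 34546 genes with a count and that of VM645 had the highest Actb of its group, whereas the tumor spleen of VM294 had 18368 genes with a count and the lowest Cd4. In the pre-lymphoma set the share of uniquely placed reads outside genes was 10.9% to 12.8% in controls, 8.74% to 9.82% for control/fusion and 7.28% to 8.46% for fusion/fusion, and the part of this in the results was not tested. In bulk samples, more RNA of a gene per cell and more cells that express it cannot be told apart.

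Actin forms filaments that give cells their shape, move them and carry force. Non-muscle cells, T cells among them, build filaments from beta- and gamma-actin, whereas alpha- and gamma-smooth muscle actin, smoothelin and transgelin mark contractile smooth muscle. Many of these genes are driven by the factor SRF with its MRTF partners, which respond to the pool of free actin and bind a DNA element called the CArG box.

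The 4 actins of the group are Actg2 (chr6:83512905-83536265, the gamma actin of enteric smooth muscle), Acta2 (chr19:34241090-34255336, the alpha actin of vascular smooth muscle), Actb (chr5:142903115-142906754) and Actg1 (chr11:120345690-120348542), with coordinates of the deposited tables on mm10. Their coding ends are shown because reads from such similar genes could be taken for one another. The last 60 coding bases before the stop codon, from GENCODE M21 transcripts (GRCm38), are in lower case, with capitals where a base is not that of Actg2.
Actg2: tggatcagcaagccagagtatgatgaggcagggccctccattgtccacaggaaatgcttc
Acta2: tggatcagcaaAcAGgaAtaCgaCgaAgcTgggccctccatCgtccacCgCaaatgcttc
Actb: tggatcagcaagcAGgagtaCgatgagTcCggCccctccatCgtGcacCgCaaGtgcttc
Actg1: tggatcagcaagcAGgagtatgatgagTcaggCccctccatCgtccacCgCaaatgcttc
Acta2 and Actb differed from Actg2 at 11 of these 60 bases and Actg1 at 7. Over the whole coding sequence Actg2 matched Acta2 at 83.8% of bases, Actb at 82.8% and Actg1 at 82.6%, with no identical stretch above 29 bases. Of 1592 distinct 50-base words in Actg2 transcripts, 0 were found in a transcript of another gene. Of the 4 actins Actg1 was the least distinct, with 37.4% of its 50-base words also in other genes such as Gm12715, so its counts are the less certain. The words of Actb were shared at 9.1%, those of Acta2 at 0.3%.

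In the pre-lymphoma CD4+ cells, Actg2 and Smtn were higher in both fusion groups than in control, and Actn1 was lower. Actg2 was at 1.39 and 1.12 CPM in the 2 control libraries. It was at 12.5, 15.6 and 13.7 CPM in control/fusion and at 22.7, 21.3 and 20.3 CPM in fusion/fusion. The 3 groups did not overlap and each was narrow. The log2 difference of Actg2 from control was 3.45 in control/fusion and 4.05 in fusion/fusion, and 3.75 ± 0.16 (SE) for both together.

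Smtn (chr11:3517523-3540612) encodes smoothelin, a protein of smooth muscle that binds actin filaments. It was at 3.22 and 3.04 CPM in control, at 18.5, 16.5 and 14.3 CPM in control/fusion and at 52.4, 45.8 and 46.7 CPM in fusion/fusion. These groups did not overlap either. The log2 difference of Smtn from control was 2.35 in control/fusion and 3.91 in fusion/fusion, and 3.13 ± 0.13 (SE) for both together. The annotated antisense gene Gm11946 covers 16.3% of the exon bases of Smtn and had 0 to 5 counts where the tables list it, against 36 to 901 for Smtn.

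Acta2 was low throughout, at 0.69 and 0.38 CPM in control, 1.28, 1.51 and 1.03 CPM in control/fusion and 1.75, 1.81 and 1.82 CPM in fusion/fusion, which is 10 to 48 counts per library. Its groups kept the same order as those of Actg2 at a lower level, and the log2 difference from control was 1.43 ± 0.30 (SE). Tagln, which encodes transgelin, a calponin-like actin binder of smooth muscle, had 0 to 19 counts and no order among groups. Most of its exon bases, 62.4%, lie under the antisense gene Gm48529, so even these few counts are uncertain.

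The members that were abundant in control cells differed less, apart from Actn1. Actn1 (chr12:80167542-80260371), the non-muscle alpha-actinin that cross-links filaments, was at 450.1 and 470.7 CPM in control, at 351.5, 328.7 and 324.6 CPM in control/fusion and at 195.1, 165.9 and 166.6 CPM in fusion/fusion. It went down in the same steps in which Actg2 and Smtn went up, and the 3 groups did not overlap. Its log2 difference from control was −0.49 in control/fusion and −1.43 in fusion/fusion. Actg1 was higher by 0.49 ± 0.08 (SE) on the log2 scale over both groups. The others stayed closer to control. On the log2 scale Tagln2 was at −0.35 in control/fusion and −0.07 in fusion/fusion, Actb at 0.10 and 0.25, Tpm1 at −0.01 and 0.22, and Cnn2 at 0.09 and 0.16. Counted as the other comparisons are, 5 of the 10 genes passed, beside 39.5% of 16257 genes, and nothing is read from this since the genes were chosen on this contrast.

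**Figure D1:**
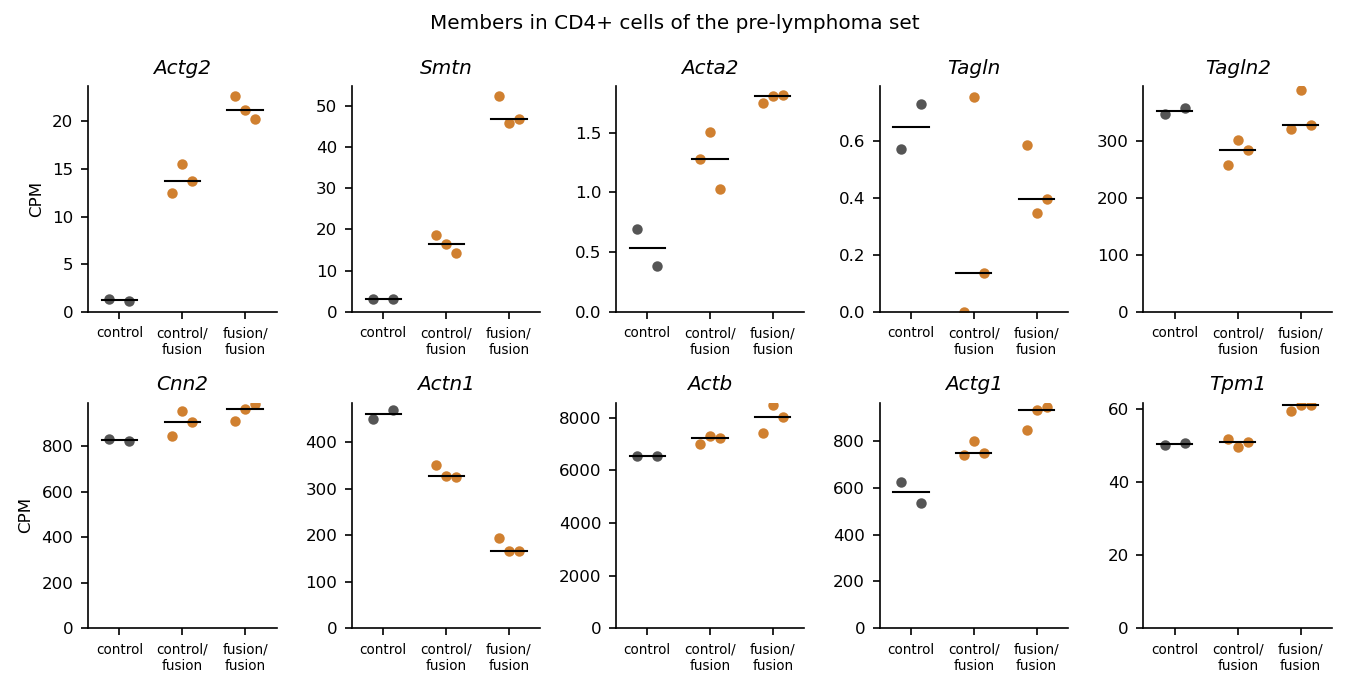
CPM of the 10 genes in each CD4+ library of the pre-lymphoma set (points), with the group median as a line, on a linear axis from 0 for each gene. Actg2 and Smtn climb from control through control/fusion to fusion/fusion, Actn1 goes down in the same order, and Tagln stays under 1 CPM.

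The step from control/fusion to fusion/fusion compares the 6 fusion libraries with each other. The genes were chosen on these libraries too, so this step is also described without a test. In fusion/fusion Smtn was higher by 1.55 ± 0.10 (SE) on the log2 scale and Actg2 by 0.61 ± 0.11, and Actn1 was at −0.94 ± 0.07. Tpm1, a tropomyosin that lies along the filament, was at 49.6 to 51.9 CPM in control/fusion and 59.6 to 61.2 CPM in fusion/fusion, a difference of 0.24 ± 0.06. Tagln2, the transgelin of lymphocytes, was at 259.1 to 303.0 and 322.3 to 391.0 CPM, a difference of 0.29 ± 0.09, with the control libraries at 348.5 and 359.5 CPM. Tagln2 was thus lowest in control/fusion, and its fusion/fusion range took in both controls.

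Actg1 was at 739.5 to 800.1 CPM in control/fusion and 847.4 to 943.2 CPM in fusion/fusion, a difference of 0.24 ± 0.08. Acta2 (0.51), Actb (0.14), Cnn2 (0.07, calponin of non-muscle cells) and Tagln (0.79) completed the members on the same log2 scale. Counted as the other comparisons are, 5 of the 10 genes passed, 4 higher and 1 lower, beside 18.9% of 16257 genes, and nothing is read from this.

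The same step was read in other lists of genes, chosen like the members with results of these data known. Over all genes 18.9% passed with edgeR's quasi-likelihood F test in this step, and the counts stand beside that share. Among 13 measured genes of the SRF and MRTF list, 4 rose and 2 fell, while the summed level of the list went from 4774 to 4993 CPM to 4178 to 4543 CPM. The LIM protein gene Fhl2 rose by 0.90 ± 0.20, Csrp1 by 0.34 ± 0.09 and the adhesion gene Zyx by 0.31 ± 0.06 on the log2 scale, whereas Mrtfa, which encodes an SRF partner, fell by 0.26 ± 0.07 and the myosin gene Myh9 by 0.24 ± 0.06 (both named after their values were seen). Srf itself was at −0.08 ± 0.09 and did not pass. Among 23 genes of filament assembly and linkage, 6 rose and 2 fell, led by the capping gene Capg (0.71 ± 0.06) and the intermediate filament gene Vim (0.70 ± 0.09). Among 6 measured paralogs of the members, the tropomyosin Tpm4 rose by 0.30 ± 0.06 and the calponin Cnn3 fell by 0.64 ± 0.07. List medians were −0.12 for the SRF list, 0.11 for the assembly list and 0.18 for the paralogs, beside −0.0027 for all genes. All 10 genes of a cell division list rose in this step, with summed levels of 382.2 to 462.0 CPM in control/fusion and 779.1 to 829.4 CPM in fusion/fusion, and 6 of 9 T cell activation genes rose as well. The part of division and activation in the other changes was not tested.

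Several other smooth muscle genes were near 0. The defining marker Myh11, smooth muscle myosin, was at 0.63 CPM or less in the 8 libraries, and Cnn1, Lmod1, Pdlim3, Casq2 and Myocd had at most 3 counts in every one of them. The summed level of the 15-gene contractile list was 11.7 to 11.9 CPM in control, between 15.7 and 17.0 CPM for control/fusion and between 18.8 and 22.03 CPM for fusion/fusion. Of 9 tested genes of this list, 4 were higher and 0 lower in fusion/fusion than in control with edgeR. The median log2 difference of these 9 genes from control was 1.01, beside −0.0076 for all genes. Genes this low can pass the filter on low counts through the fusion libraries alone. In control Kcnmb1 was at 0.20 to 0.38 CPM, Tpm2 at 0.19 to 0.37 CPM and Mylk at 0.37 to 0.46 CPM. The count and the median partly follow from that filter, so nothing is read from them. The same limit applies to the stromal and pericyte counts below. In the step to fusion/fusion 9 of the 15 genes could be tested: Kcnmb1, a potassium channel subunit, rose by 2.71 ± 0.32 (named after its value was seen) and Ppp1r14a fell by 1.16 ± 0.19. Fibroblast and stromal markers summed to 5.77 to 7.996, 4.08 to 17.3 and 16.8 to 29.2 CPM in the 3 groups, and 0 of 8 tested passed in this step with edgeR, beside 5 of 8 that were higher in fusion/fusion than in control, where 23.8% of all genes were. Not all such genes are drawn in the plot of these markers. For example, Myl9 reached 24.8 CPM in 1 CD4-CreERT2 tumor spleen and Col3a1 reached 7.08 CPM in fusion/fusion. The sum of the 12 stromal markers reached 32.3 CPM in 1 CD4-CreERT2 tumor CD4+ library. The pericyte list summed to 2.92 to 3.18 CPM in control, 4.55 to 6.10 CPM in control/fusion and 5.54 to 6.39 CPM in fusion/fusion. Of 5 tested pericyte genes 2 were higher and 0 lower in fusion/fusion than in control. Markers of other blood cells differed between these libraries too. Erythroid markers summed to 49.4 to 116.6 CPM in control, between 121.2 and 551.3 CPM for control/fusion and between 315.5 and 371.5 CPM for fusion/fusion, and 8 of 8 were higher in fusion/fusion than in control. In the step to fusion/fusion 4 of 6 neutrophil genes rose, and of 12 macrophage genes 1 rose and 4 fell, with sums of 20.3 to 37.4 and 51.4 to 87.6 CPM for neutrophil and 2493 to 5202 and 2096 to 2812 CPM for macrophage genes. The part of stromal, pericyte, erythroid, neutrophil and macrophage cells in the Actg2 and Smtn levels was not tested.

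**Figure D2:**
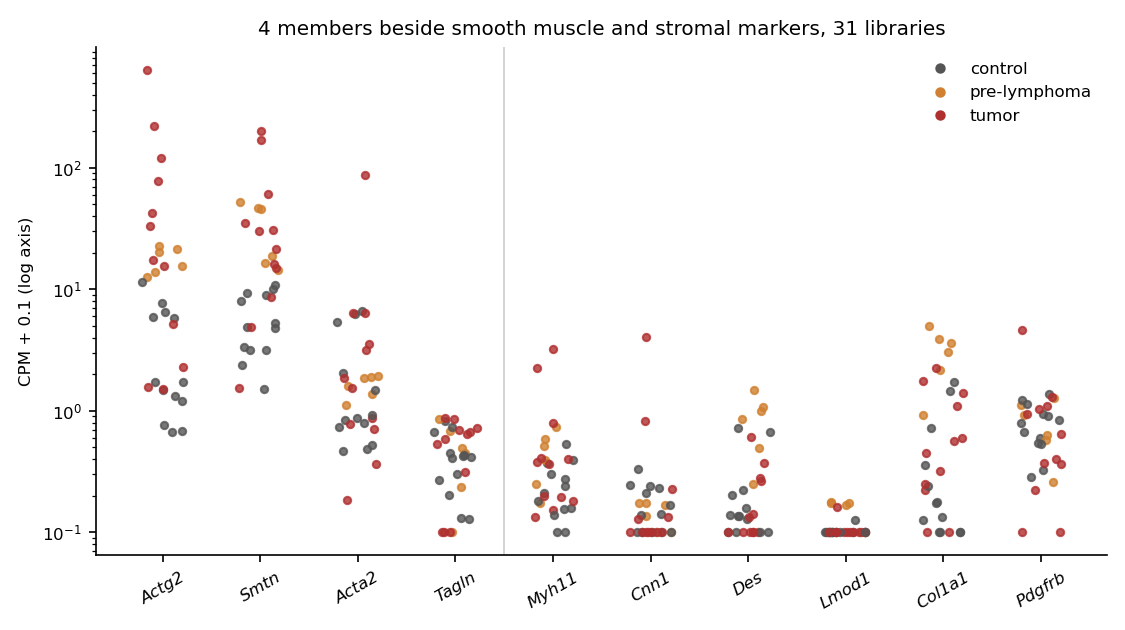
CPM + 0.1 on a log axis of Actg2, Smtn, Acta2 and Tagln (left of the line) and of 6 smooth muscle and stromal markers (right) in the 31 libraries, 1 point each, coloured by status with a small sideways spread. Actg2 and Smtn reach over 100 CPM in tumor libraries, whereas none of the 6 markers drawn goes above 5 CPM.

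In tumor mice of the CD4-Cre set, Actg2 was higher in every tumor CD4+ library than in every control, and the tumors differed widely from each other. Control CD4+ cells had 6.36 (VM211), 11.5 (VM216) and 5.70 CPM (VM645). Tumor CD4+ cells had 221.7 (VM388), 119.1 (VM58), 635.3 (VM645) and 77.3 CPM (VM98). The log2 fold change was 5.16 ± 0.88 (SE), which missed the threshold with edgeR (adjusted p = 0.0731) and passed with DESeq2 (adjusted p = 1.07e-12), without the tumor library of VM645 (4.13, adjusted p = 0.0314) and without that of VM98 (5.45, adjusted p = 0.024).

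Smtn did not follow Actg2 in each tumor. Controls had 7.91, 8.91 and 10.8 CPM, and the tumors had 198.9 (VM388), 167.6 (VM58), 8.51 (VM645) and 35.0 CPM (VM98). The tumor with the most Actg2, VM645, thus had Smtn within the range of the controls. The log2 fold change of Smtn was 3.42 ± 0.95 (edgeR adjusted p = 0.165; DESeq2 adjusted p = 0.000265).

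Among the other genes, Tpm1 was at 43.7 to 50.6 CPM in controls and 55.1 to 76.7 CPM in tumors without overlap, a log2 fold change of 0.55 ± 0.15 (edgeR adjusted p = 0.159; DESeq2 adjusted p = 0.0275). Actn1 was at 12.8 to 22.8 CPM in controls and 1.73 to 12.8 CPM in tumors, at −1.14 ± 0.57. Actb (1994 to 2873 CPM in controls) and Actg1 (1425 to 1548 CPM) were high in 1 tumor, VM645, at 10986 and 3930 CPM. Their log2 fold changes of 0.93 and 0.55 turned to −0.25 and −0.04 without that library. In all, edgeR called 0 of the 10 genes, beside 0.157% of 17841 genes, with 3 members at an unadjusted p under 0.05, beside 15.1% of all genes, and 3 called by DESeq2, beside 7.08%. Ranges of tumor and control did not overlap for 4 of 10 members, beside 16.6% of all genes. Other cells in these CD4+ libraries differed by status too. Macrophage genes summed to 3142 to 4942 CPM in control and 178.9 to 2258 CPM in tumor, B cell genes to 790.4 to 1250 and 54.7 to 749.0 CPM. Neutrophil genes overlapped, at 203.2 to 1041 and 2.87 to 1939 CPM. The part of such cells in the Actg2 and Smtn levels here was not tested.

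In whole spleen of the same model, Actg2 and Smtn were both higher in each tumor than in each control. Actg2 was at 0.67, 1.62 and 1.23 CPM in controls and 33.2 (VM388), 42.2 (VM58) and 5.06 CPM (VM98) in tumors. Smtn was at 1.42, 3.09 and 4.73 CPM in controls and 15.96 (VM388), 60.3 (VM58) and 30.6 CPM (VM98) in tumors. The log2 fold changes were 4.19 ± 0.75 for Actg2 and 3.27 ± 0.65 for Smtn (edgeR adjusted p = 0.207 for both; DESeq2 adjusted p = 5e-07 and 1.96e-05). Without the tumor spleen of VM98, Actg2 was at 4.70 with adjusted p = 0.0141.

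Acta2 stood apart in a single spleen. It was at 5.30 to 6.53 CPM in control spleen and at 87.1 (VM388), 0.09 (VM58) and 3.46 CPM (VM98) in tumor spleen, and its log2 fold change of 2.08 ± 1.66 turned to −1.65 without VM388. In that VM388 library Cnn1 was at 3.93 CPM, its highest of 31 libraries, whereas Myh11 was at 0.31, Des at 0.27 and Tagln at 0.43 CPM. Actb was lower in tumor spleen, at 1666 to 3281 CPM against 4567 to 6480 CPM, at −1.39 ± 0.40 (edgeR adjusted p = 0.257; DESeq2 adjusted p = 0.00821). With edgeR 0 of 10 members and 0% of 17050 genes were called, with 3 members at an unadjusted p under 0.05, beside 13.9% of all genes, and 3 called by DESeq2, beside 4.32%. Ranges did not overlap for 4 of 10 members, beside 21.7% of all genes. Neutrophil genes overlapped by status, at 6206 to 38465 CPM in control spleen and 157.3 to 59301 CPM in tumor spleen. The part of other cells in these spleen values was not tested. The contractile list summed to 6.39 to 10.1 CPM in control and 8.35 to 14.2 CPM in tumor spleen, and to 10.6 to 19.99 and 6.88 to 16.9 CPM in CD4+ cells, so the tumor and control ranges of this sum overlapped in both tissues.

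**Figure D3:**
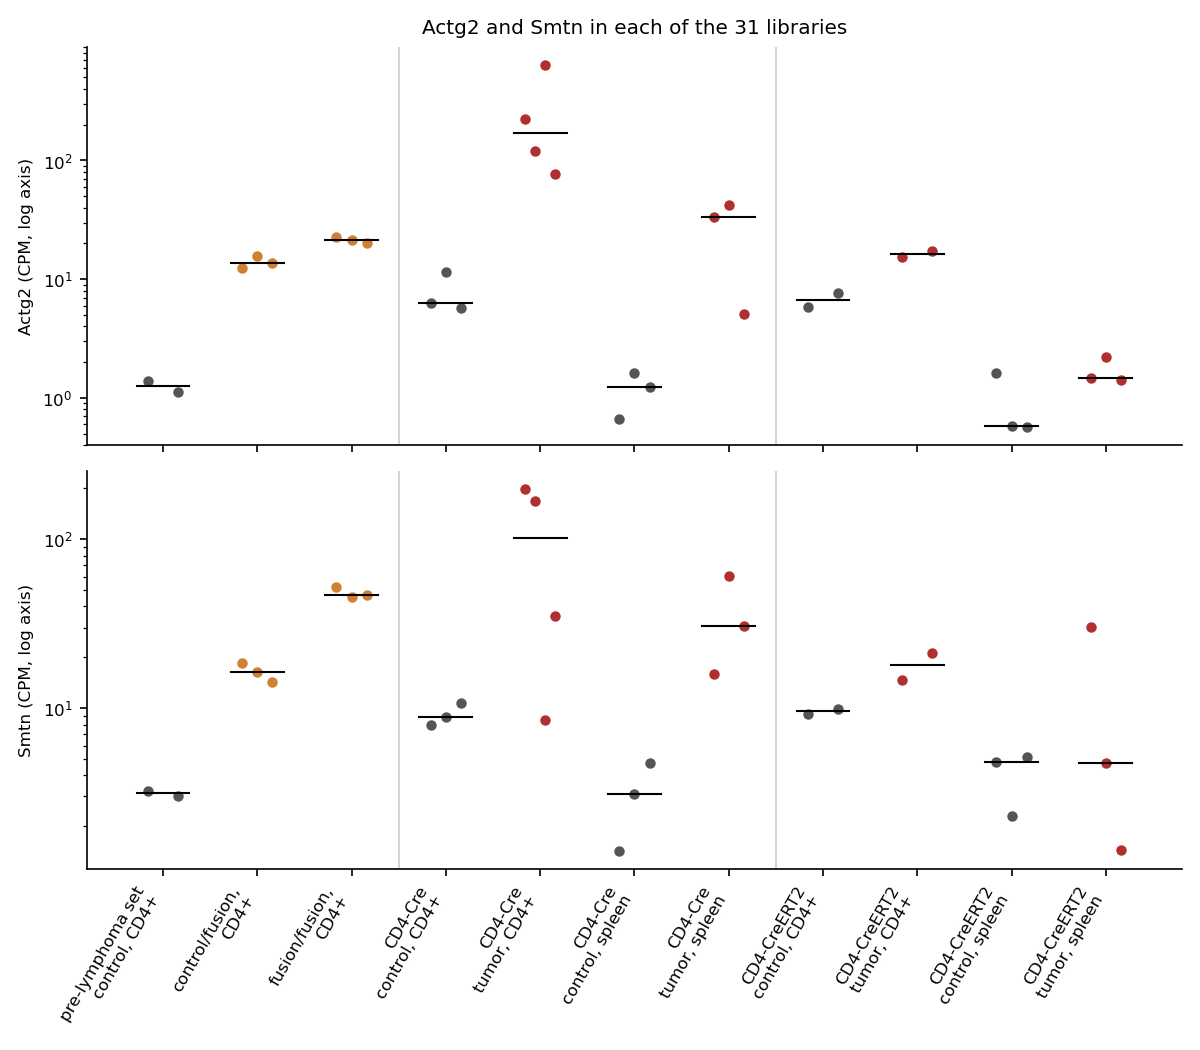
Actg2 and Smtn CPM of each library (points) on log axes, by group, with the group median as a line; grey vertical lines part the 3 sets. Actg2 in CD4-Cre tumor CD4+ cells spans 77.3 to 635.3 CPM, and Smtn in the same 4 libraries spans 8.51 to 198.9 CPM.

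In the CD4-CreERT2 mice Actg2 and Smtn were higher in both tumor CD4+ libraries than in both controls. Actg2 was at 5.82 and 7.61 CPM in control CD4+ cells and at 15.4 and 17.4 CPM in tumor. Smtn was at 9.21 and 9.90 CPM in control and at 14.8 and 21.3 CPM in tumor. Neither gene overlapped between groups, with log2 fold changes of 1.27 ± 0.36 and 0.88 ± 0.33 (edgeR adjusted p = 0.916 and 0.94), and with 2 libraries a group an exact permutation test cannot go below p = 0.333. With edgeR 0 of 10 members and 0% of 17341 genes were called. At an unadjusted p under 0.05 there were 2 members, beside 5.17% of all genes, and with DESeq2 0, beside 1.57%. Ranges did not overlap for 3 of 10 members, beside 29.3% of all genes. Markers of other blood cells in these CD4+ libraries differed by status as well. B cell genes summed to 2691 to 2892 CPM in control and 193.1 to 1501 CPM in tumor. Macrophage genes summed to 307.7 to 684.0 and 1614 to 5864 CPM, neutrophil genes to 43.9 to 65.1 and 91.99 to 5851 CPM. Erythroid genes summed to 7.51 to 11.5 CPM in control and 82.2 to 114.2 CPM in tumor. The contractile list summed to 7.22 to 8.76 and 10.9 to 15.7 CPM, fibroblast and stromal markers to 0.55 to 0.81 and 1.16 to 32.3 CPM. The pericyte list overlapped, at 1.99 to 2.32 and 0.98 to 5.66 CPM. The part of all these cells in the Actg2 and Smtn values was not tested.

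In CD4-CreERT2 spleen Actg2 was at 1.62, 0.59 and 0.57 CPM in control and 1.47 (VM231), 2.21 (VM236) and 1.41 CPM (VM294) in tumor, which overlapped. Smtn was at 2.30 to 5.17 CPM in control and at 30.1 (VM231), 4.75 (VM236) and 1.45 CPM (VM294) in tumor. The log2 fold change of Smtn, 1.96 ± 1.002, rested on VM231 and was −0.02 without it. Acta2 was the member whose spleen groups did not overlap, at 0.36 to 0.82 CPM in control and 1.76 to 6.31 CPM in tumor, a log2 fold change of 3.32 ± 0.81 (edgeR adjusted p = 0.138, and 0.0417 without VM236; DESeq2 adjusted p = 0.000748). With edgeR 0 of 9 members and 0% of 16163 genes were called, with 2 members at an unadjusted p under 0.05, beside 20.1% of all genes, so this count is near the background. DESeq2 called 2, Acta2 and Actn1 (2.001 ± 0.71; DESeq2 adjusted p = 0.0404), beside 11.2% of all genes. Ranges did not overlap for 1 of 9 members, beside 39.7% of all genes. Markers of other blood cells differed by status in these spleens. Neutrophil genes summed to 377.2 to 836.9 CPM in control and 2291 to 85164 CPM in tumor, erythroid genes to 8.54 to 17.8 and 95.3 to 1027 CPM. Macrophage genes summed to 474.4 to 719.9 and 827.7 to 3385 CPM, B cell genes to 8812 to 9807 and 681.8 to 5148 CPM. The part of these cells in the member values was not tested. The CPM of VM294 run low for most members, with Actb at 722.3, Cnn2 at 37.2 and Tagln2 at 39.6 CPM, the lowest of the 31 libraries for each.

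**Figure D4:**
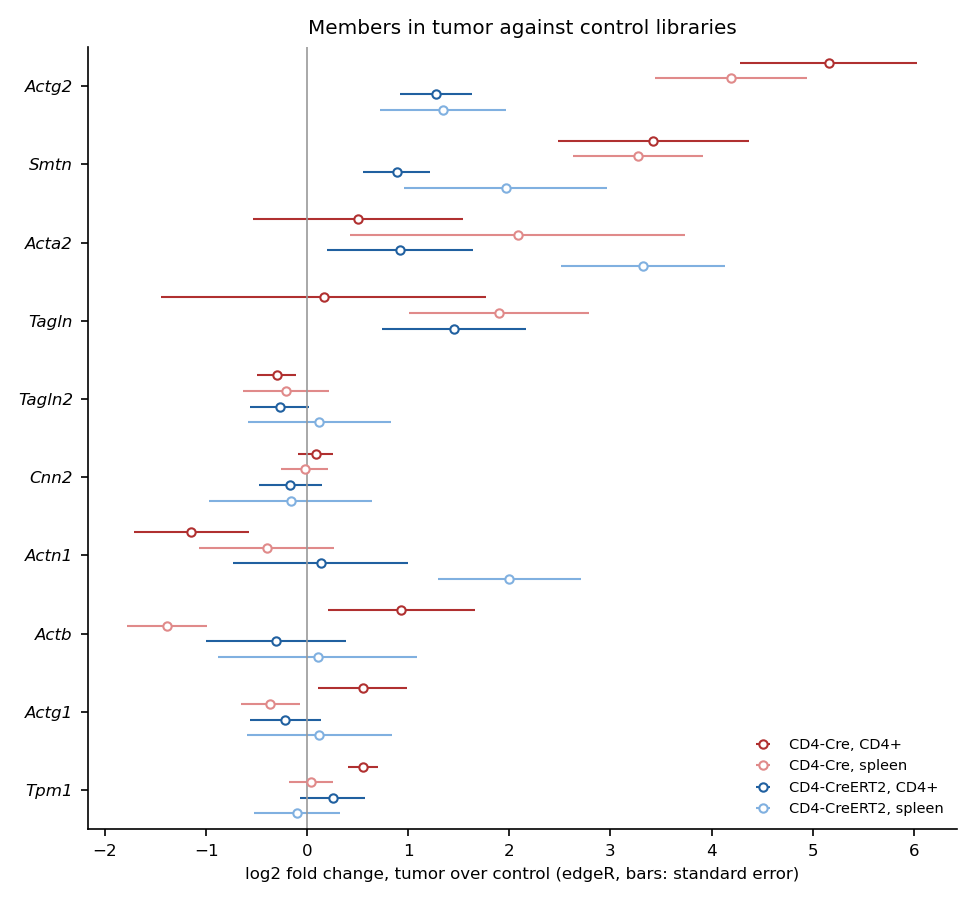
Log2 fold change of tumor over control for the 10 genes in 4 comparisons, with bars for the standard error; open points mark that no value passed an adjusted p of 0.05 with edgeR. Actg2 and Smtn lie to the right of 0 in all 4, and Tagln could not be tested in CD4-CreERT2 spleen.

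For Actg2 and Smtn alone, an exact two-sided permutation test shuffled status within each set and summed both sets. In CD4+ cells 1 of 210 arrangements was as extreme for Actg2, an exact p of 0.00476, the smallest this design can give. On its own the CD4-Cre set gave an exact p of 0.0286 and the CD4-CreERT2 set 0.333. The exact permutation p of Smtn in CD4+ cells was 0.0286, with 0.114 in the CD4-Cre set and 0.333 in the CD4-CreERT2 set alone. In spleen the exact permutation p was 0.015 for Actg2 and 0.055 for Smtn. The CD4-Cre set alone gave 0.1 for each gene, and the CD4-CreERT2 set alone 0.3 for Actg2 and 0.9 for Smtn. These 4 tests and the values of single sets are not adjusted. CD4+ cells and spleens share mice, so the tests are not independent of each other.

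Control tissues gave the levels without tumor. Actg2 was higher in CD4+ cells than in spleen in both sets, at 5.70 to 11.5 against 0.67 to 1.62 CPM in CD4-Cre controls and at 5.82 to 7.61 against 0.57 to 1.62 CPM in CD4-CreERT2 controls. Spleen was lower by a log2 difference of −2.37 ± 0.44 (adjusted p = 0.00831) and −2.86 ± 0.46 (adjusted p = 0.0028) with edgeR. Smtn went the same way, at −1.19 ± 0.45 (adjusted p = 0.0896) in CD4-Cre controls and −1.24 ± 0.35 (adjusted p = 0.0328) in CD4-CreERT2 controls. With the mouse number as a block, Smtn passed in CD4-Cre controls too, at −1.35 with adjusted p = 0.0164.

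The cytoskeletal actins did not keep 1 direction between the sets. Actb was higher in spleen than in CD4+ cells of CD4-Cre controls, at 4567 to 6480 against 1994 to 2873 CPM (1.49 ± 0.20, adjusted p = 0.00226), and lower in spleen of CD4-CreERT2 controls, at 6595 to 8086 against 9239 to 11370 CPM (−0.54 ± 0.16, adjusted p = 0.0372). Actg1 was at 0.54 ± 0.12 (adjusted p = 0.0173) in CD4-Cre controls and at −0.43 ± 0.15 (adjusted p = 0.0789) in CD4-CreERT2 controls. The difference between the sets was not tested. Neutrophil markers summed to 6206 to 38465 CPM in CD4-Cre control spleen and to 377.2 to 836.9 CPM in CD4-CreERT2 control spleen, and their part in the Actb values was not tested. Acta2 was higher in spleen of CD4-Cre controls, at 5.30 to 6.53 against 0.78 to 1.94 CPM (2.48 ± 0.37, adjusted p = 0.00354). Cnn2 and Tagln2 were lower in CD4-CreERT2 control spleen by 0.62 and 0.55 on the log2 scale (adjusted p = 0.00776 and 0.0135).

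In all, 4 of 9 tested members passed in CD4-Cre controls, 3 higher and 1 lower in spleen, beside 25.7% of 17426 genes. In CD4-CreERT2 controls 5 of 9 passed, all lower in spleen, beside 21.6% of 16951 genes. With all libraries of a set in 1 fit, tumor libraries included, 0 of these calls were left in either set, with Actg2 at −2.36 (adjusted p = 0.183) and −2.83 (adjusted p = 0.471). With the block, Tagln2 also passed in the CD4-Cre controls (0.36, adjusted p = 0.0217), and Actg1 (−0.42, adjusted p = 0.035) and Actn1 (−0.78, adjusted p = 0.0143) in the CD4-CreERT2 controls. The calls of Smtn, Tagln2 and Actb in CD4-CreERT2 controls were lost on leaving out single libraries, which left 2 to 6 calls; without A1 or A3 of CD4+ cells or A2 of spleen all 3 were lost. In CD4-Cre controls the call of Actg1 was lost without the CD4+ library of VM211 (adjusted p = 0.0754) or VM216 (adjusted p = 0.0554). Scaled by library totals only, Actg1 was at 0.19 there and did not pass, with the median of all genes at −0.34.

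**Figure D5:**
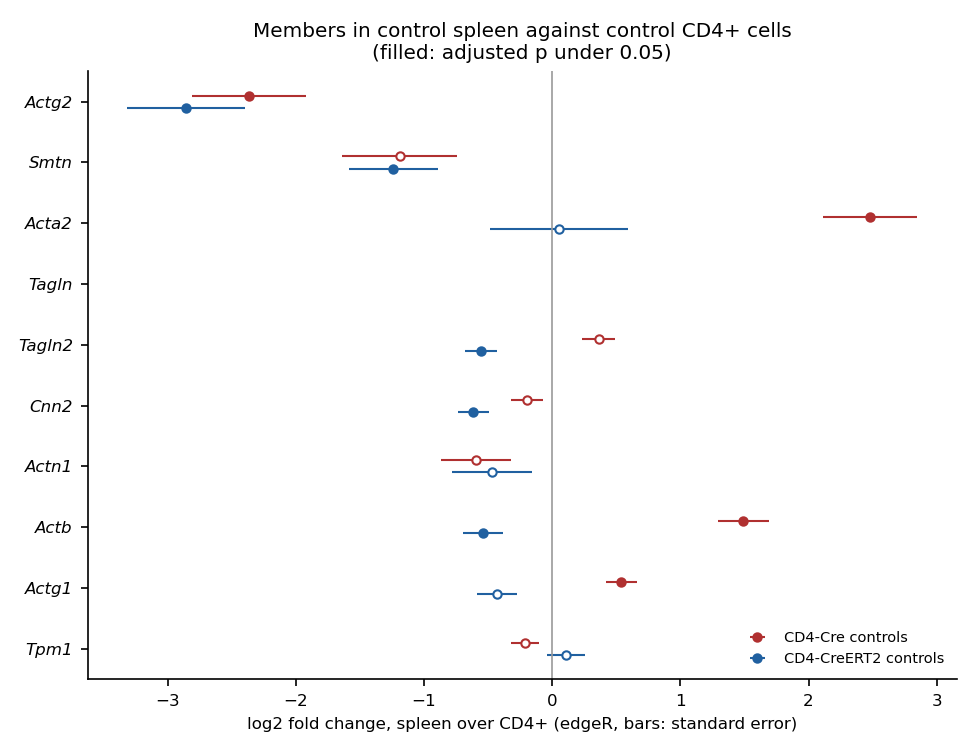
Log2 fold change of spleen over CD4+ cells in control mice of both sets, with bars for the standard error; filled points passed an adjusted p of 0.05 with edgeR. Actg2 lies below −2 in both sets, whereas Actb and Actg1 lie on opposite sides of 0.

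In tumor mice the order of tissues for Actg2 was the same, with all 4 CD4+ libraries of the CD4-Cre tumors above all 3 spleens (−3.39 ± 0.94, edgeR adjusted p = 0.187). Both CD4+ libraries of the CD4-CreERT2 tumors were above their 3 spleens as well. With edgeR 0 of 10 members and 0% of genes were called between tissues in either tumor model. In the CD4-Cre set 2 members were at an unadjusted p under 0.05, beside 14.2% of all genes, and 1 was called by DESeq2, beside 7.06%. In the CD4-CreERT2 set it was 1 member, beside 3.85%, and 1 by DESeq2, beside 0.406%. Whether the tumor change differed between tissues was tested directly: it was −1.02 ± 1.08 for Actg2 in the CD4-Cre set (spleen minus CD4+, adjusted p = 0.83) and −0.21 ± 1.15 for Smtn (adjusted p = 0.978). In either set 0 of 10 members and 0% of genes were called, and DESeq2 called 0 in both, beside 0.261% of all genes in the CD4-Cre set and 0% in the CD4-CreERT2 set. At an unadjusted p under 0.05 there were 2 members in the CD4-Cre set, beside 7.32%, and 0 in the CD4-CreERT2 set, beside 2.59%. The difference of tumor changes in the CD4-CreERT2 set was 0.05 ± 0.73 for Actg2 and 1.07 ± 1.33 for Smtn (adjusted p = 0.996 and 0.972). Standard errors of this size leave a difference of 1 on the log2 scale undetectable.

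The order of Actg2 levels across groups was clear at its ends. In the CD4-Cre set it ran from control spleen through control CD4+ cells and tumor spleen, which overlapped each other, to tumor CD4+ cells. In the CD4-CreERT2 set control and tumor spleen overlapped, and control CD4+ cells and then tumor CD4+ cells lay above them. Per kilobase of exon, Actg2 in CD4-Cre tumor CD4+ cells averaged 169.1 CPM, above Tpm1 (10.6) and Smtn (23.4) and below Actg1 (781.3) and Actb (1593). Without VM645 these means were 89.5 for Actg2, 11.3 for Tpm1, 30.6 for Smtn, 548.8 for Actg1 and 757.2 for Actb, in the same order. In control CD4+ cells of the same set it averaged 5.0 CPM per kilobase, close to Actn1 (4.5) and below Tpm1 (7.4). In pre-lymphoma fusion/fusion cells it averaged 13.7 CPM per kilobase and Smtn 11.0.

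Genes most like Actg2 were ranked by the correlation of log2 CPM over the 31 libraries, after the mean of each set and tissue was removed, among 11013 genes. The closest were Ctla4, an inhibitory receptor of T cells (Pearson r = 0.88), the secreted matrix protein gene Ccn4 (0.87), Smco4 (0.85), the keratin Krt83 (0.85) and the microtubule end-binding gene Mapre2 (0.84). Smtn stood at place 127 (0.68). Closest to Smtn itself were the interleukin receptor gene Il1r1 (0.89), Paqr4 (0.82), the helicase gene Pif1 (0.82), the cytokine gene Il4 (0.82) and the phospholipase gene Plcb4 (0.81). These points share libraries, mice and status groups, so the values are a description with no p. The 31 libraries include the pre-lymphoma set on which Actg2 and Smtn were both chosen. Their likeness to each other is thus partly fixed by that choice, and nothing is read from it. Ctla4 was at 65.8 to 71.2 CPM in pre-lymphoma controls and 186.7 to 197.9 CPM in fusion/fusion, and at 170.2 to 1259 CPM in CD4-Cre tumor CD4+ cells against 157.0 to 160.5 CPM in their controls. In CD4-CreERT2 CD4+ cells, where Actg2 was higher in tumor, Ctla4 was at 121.9 and 134.2 CPM in tumor and at 132.8 and 176.7 CPM in control. Among the members, Actb and Actg1 were the pair most alike (0.93), followed by Tagln2 and Cnn2 (0.87), whereas Actg2 and Actn1 ran in opposite directions (−0.54).

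Of the 10 genes, 7 have an entry among RefSeq promoters of GRCm38.p6. The 250 bases before the start were searched on both strands for the CArG box in its strict form, CCWWWWWWGG with W for A or T. They were also searched on both strands for CATTCC, the core of a TEAD site, and for TGANTCA, and on the given strand for TATAAA. A CArG box of this strict form was found in 2 of the 7, Actg1 and Cnn2, and in 1.5% of all 32851 promoters. Variants were not counted, so a promoter without a match may still hold one. The Acta2 promoter, for example, holds CCCTATATGG, which differs from the strict form in the base after CC. CATTCC was found in 4 of the 7 (Acta2, Smtn, Tagln2 and Tpm1), beside 12.6% of all promoters. TGANTCA and TATAAA were in none of the 7, beside 6.7% and 7.6%. The 3 promoters below are shown because Smtn is the member with the largest difference between the fusion groups and the other two hold the CArG box. They run 5′ to 3′ on the strand of the gene and end at the base before the start, with motif matches in capitals. Smtn lies at chr11:3539293-3539542 (minus), Cnn2 at chr10:79988350-79988599 (plus) and Actg1 at chr11:120348496-120348745 (minus).
Smtn: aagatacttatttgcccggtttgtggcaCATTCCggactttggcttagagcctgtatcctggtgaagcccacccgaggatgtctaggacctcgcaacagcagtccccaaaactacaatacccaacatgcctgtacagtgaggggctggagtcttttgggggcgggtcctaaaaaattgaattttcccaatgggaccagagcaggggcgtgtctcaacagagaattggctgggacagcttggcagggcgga
Cnn2: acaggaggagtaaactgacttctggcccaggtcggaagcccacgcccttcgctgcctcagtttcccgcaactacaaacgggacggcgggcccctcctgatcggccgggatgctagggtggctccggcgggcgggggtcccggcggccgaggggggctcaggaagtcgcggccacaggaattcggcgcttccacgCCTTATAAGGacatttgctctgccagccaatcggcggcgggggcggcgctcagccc
Actg1: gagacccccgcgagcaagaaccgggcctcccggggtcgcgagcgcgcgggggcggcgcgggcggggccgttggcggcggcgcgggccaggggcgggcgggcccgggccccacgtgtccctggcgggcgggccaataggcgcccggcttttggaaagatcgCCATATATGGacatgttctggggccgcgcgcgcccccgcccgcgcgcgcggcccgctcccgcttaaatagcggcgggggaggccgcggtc
The CArG box begins 90 bases before the start in Actg1 and 56 bases before it in Cnn2, and CATTCC begins 222 bases before it in Smtn. A match of letters is a description only.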

How the data were processed

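The deposited files hold raw read counts per gene, 1 table per library. Reads were placed with HISAT2 2.1.0 and counted with HTSeq 0.5.4 on mm10, per the submitters' processing notes, which for 10 libraries also name GRCm38. Annotation release, strand and read length are not given in the sources used here. Symbols came from 21 tables and Ensembl identifiers, matched to a symbol for 48970 of 49315 genes, from 10. Those 10, of the CD4-CreERT2 set, have another layout, with exon coordinates and lengths. Whether the same tool counted them is not given beyond those notes. Lines that name no gene were left out of library totals, and reads outside genes came to 7.28% to 23.7% of uniquely placed reads in the 21 libraries whose tables list them.

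Counts were fitted with edgeR 4.0.16 in R 4.3.3 (filterByExpr, TMM scaling, quasi-likelihood F test, Benjamini-Hochberg adjustment over all genes tested, threshold 0.05), and the SE is the absolute log2 fold change divided by the square root of F. DESeq2 1.42.0, other scalings, no filter, a sex term, all libraries of a set in 1 fit and leaving out each library were alternatives. Scripts were tested on simulated counts. Replicates carry different mouse numbers, and nothing else says how far they are independent. The same number on a CD4+ and a spleen library marks 1 mouse, per the labels, and deviations of such pairs correlated across genes at 0.159 to 0.454 in 10 pairs, so the fit with mouse number as a block is given where it changes a call.

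All 10 members are named in the text. Both pre-lymphoma contrasts were fitted like the others, and the values of members in them are given without p, since the members were chosen on those libraries. From other lists, up to 3 genes that passed with the largest change were named, and the 5 genes most alike by correlation. The members and lists were chosen with earlier results of these data known.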

Additional observations from a re-analysis of the deposited data

Results flagged for a closer look

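In the 4 CD4-Cre tumor CD4+ libraries, 3 values lay far from the other libraries of the group, by the gap to the nearest library as a share of the whole range, where values above 0.829 stand out and chance gives about 1 group in 20. Acta2 was at 6.24 CPM in VM388 (share 0.916), and the other 3 libraries were at 0.27 to 0.77 CPM. Actb was at 10986 CPM in VM645 (share 0.901), against 1680 to 2601 CPM in the others. Actg1 was at 3930 CPM in VM645 (share 0.857), against 1270 to 1652 CPM. VM645 was also the library with the highest Actg2 of the group, at 635.3 CPM, and the lowest Smtn, at 8.51 CPM.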

How the results depend on the processing

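Of 14 fold changes past the threshold, 5 of them in the step to fusion/fusion, the 190 alternatives run left 156 past the threshold and 34 short of it, and reversed 0. The members were chosen on the libraries of that step, so nothing is read from its part of these counts or from its calls below. Of the 10 members, the step to fusion/fusion called 5, and 3 to 6 on leaving out single libraries, with 3 without TA021, TA024 or TA025. CD4-Cre tumor CD4+ cells called 0, 2 with no filter, 3 with DESeq2, 1 with all libraries of the set in the fit and 0 to 1 on leaving out libraries. Over all genes, no filter called 261 higher and 397 lower of 40042, and all libraries in the fit 24 and 97 of 19503. Without the tumor library of VM98 it was 250 and 329 of 17371, and without that of VM645 16 and 64 of 17466. CD4-Cre tumor spleen called 0, 2 with no filter, 3 with DESeq2 and 0 to 1 on leaving out libraries. Over all genes, no filter called 89 higher and 94 lower of 31061, and leaving out the tumor spleen of VM98 197 and 411 of 18098. CD4-CreERT2 tumors called 0 in CD4+ cells, where leaving out a library leaves 1 in a group and no count is given. In spleen they called 0, 2 with DESeq2 and 0 to 1 on leaving out libraries. Over all genes in spleen, DESeq2 called 1330 higher and 487 lower of 16163, and leaving out VM236 704 and 187 of 16790.

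Between control tissues the CD4-Cre set called 4, 7 with library totals only (all-gene median −0.34), 0 with all libraries in the fit and 6 with the replicate block. Over all genes, library totals only called 1131 higher and 5198 lower of 17426, and the block 2992 and 2885 of 17426. All libraries in the fit called 63 and 227 of 19503. The CD4-CreERT2 set called 5, 0 with all libraries in the fit (0 of 18529 genes) and 7 with the replicate block (2635 genes higher and 2230 lower of 16713). Calls lost there on leaving out libraries are named with the tissue results. Between tumor tissues the CD4-Cre set called 0, 2 with no filter, 1 with DESeq2 and 2 with all libraries in the fit, and the CD4-CreERT2 set 0, and 1 with DESeq2. Over all genes in the CD4-Cre set, no filter called 643 higher and 375 lower of 39727, and all libraries in the fit 520 and 519 of 19503. The block changed no other call than those printed beside the tissue results. Over all genes, DESeq2 called 651 higher and 612 lower in CD4-Cre tumor CD4+ cells, where edgeR called 3 and 25.

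Log2 values that changed sign, none of which were called, were as follows. In CD4-Cre tumor CD4+ cells, without the number VM645, Actb was −0.06 and Actg1 −0.0029, and leaving out libraries gave −0.25 to 1.21 and −0.04 to 0.72. On leaving out libraries, Acta2 in CD4-Cre tumor spleen ran from −1.65 to 2.72, and Smtn in CD4-CreERT2 tumor spleen from −0.02 to 2.48. With library totals only, Tagln2 between CD4-Cre control tissues was −0.0034 and Tpm1 in control/fusion against control 0.01. For the difference of tumor effects between tissues in the CD4-Cre set, Actg2 was 0.27 without the number VM645 and −1.38 to 0.0024 on leaving out libraries, and Smtn 0.05 with library totals only and −0.59 to 0.33. In the CD4-CreERT2 set, Actg2 was −0.42 with library totals only, −0.18 with the replicate block and −0.22 to 0.79 on leaving out libraries, and Smtn −0.89 to 1.57. The cause was not tested. Sex was read from Xist against Ddx3y and was partly mixed with status. CD4-CreERT2 controls were all female, whereas of their tumors VM231 and VM294 were male and VM236 female. CD4-Cre controls VM211 and VM216 were male and VM645 female, and tumors VM58, VM98 and VM645 were female and VM388 male. A sex term could not be fitted for the CD4-CreERT2 control tissues, and in CD4-CreERT2 CD4+ cells it leaves VM236 alone to set the tumor effect. Counts of 0 to 48 limit Tagln and Acta2 in the pre-lymphoma set.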
